A study of Mus musculus with 6 samples.

Results

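The genes described here are those through which cells display peptides to T cells on major histocompatibility complex (MHC) molecules. They were chosen by name alone, as every gene of the deposited table whose symbol starts with H2-, the prefix of the mouse MHC, together with B2m, Tap1, Tap2, Tapbp, Psmb8, Psmb9, Psmb10, Nlrc5, Ciita, Cd74, Erap1 and Calr. The rule found 56 of the 34745 genes listed, of which 31 were class I heavy chain genes or their pseudogenes, 10 belonged to the class I pathway and 14 to class II. The remaining gene, H2-Ke6, lies in the MHC but encodes a metabolic enzyme and no MHC chain. In the GENCODE annotation of GRCm38, 49 of the 56 genes lie on chromosome 17.

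RNA was sequenced from lung mesenchymal stromal cells (LMSCs), adherent cells grown from digested lungs of MMTV-PyMT mice, depleted of CD45+ cells by magnetic separation, and harvested at passage 3. In this FVB/N strain the MMTV promoter directs the polyoma middle T oncogene to the mammary epithelium, and the tumors spread to the lung. There were 2 libraries each of A-LMSCs from mice at the adenoma stage (labeled E-LMSCs, mice of 6 to 7 weeks), of PM-LMSCs from the pre-metastatic stage (labeled L-LMSCs, 9 to 10 weeks) and of M-LMSCs from the metastatic stage (13 to 14 weeks). These ages are from the labels, and the study's methods give slightly older mice for the first 2 stages. All 3 groups carried the transgene, so there was no tumor-free group among them, and stage and age cannot be told apart. The labels give a replicate number and no animal, so p-values measure the spread between these libraries.

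Class I molecules pair a heavy chain with beta-2 microglobulin, the product of B2m, and carry peptides cut by the proteasome in the cytosol. The transporter encoded by Tap1 and Tap2 brings these peptides into the endoplasmic reticulum, where tapasin (Tapbp), calreticulin (Calr) and the trimming peptidase Erap1 act on the loading of the heavy chain. Class II molecules are made mainly by professional antigen-presenting cells under the transactivator CIITA, with the invariant chain Cd74 as chaperone and H2-DM as peptide editor. Nearly all nucleated cells carry some class I, whereas fibroblast-like cells carry class II mainly after exposure to interferon gamma. Mesenchymal stromal cells are known for low MHC levels.

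The promoters of the main class I genes are shown for the short DNA elements known to link the expression of the pathway. The sequences below are from RefSeq (GRCm38.p6) and lie just before the annotated start sites. B2m is shown from position -150 to -2 (chr2:122147537-122147685, plus strand) and H2-K1 from -120 to -1 (chr17:34000348-34000467, minus strand). For H2-D1 only 30 bases are shown (chr17:35262920-35262949, plus strand), because another annotated transcript starts upstream of them. From the start of each sequence, capitals mark the core of the interferon-stimulated response element (GAAACTGAAA, in B2m only) or the kappa B site of class I promoters (in the H2 genes), then, in B2m and H2-K1, TGACG, the core of the X2 box, and ATTGG, the Y box. The stretch shown for H2-D1 ends before these boxes.
B2m: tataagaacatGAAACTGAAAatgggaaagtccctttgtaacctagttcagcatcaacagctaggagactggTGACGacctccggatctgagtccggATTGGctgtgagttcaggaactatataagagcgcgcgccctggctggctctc
H2-K1: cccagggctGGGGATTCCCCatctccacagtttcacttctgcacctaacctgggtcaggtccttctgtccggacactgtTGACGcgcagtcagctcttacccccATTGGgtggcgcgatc
H2-D1: gctGGGGATTCCCCatctcctcagtttcac

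In B2m, H2-K1 and H2-D1 alike, the first base of ATTGG stood 25 bases after the first base of TGACG. This spacing, noticed in these promoters and then searched on both strands, was present in 30 of 32851 windows of 250 bases before a start site (0.0913%), and B2m, H2-D1, H2-K1 and H2-M3 were among them. None of the 8 class II genes with a window held this exact spacing, although H2-Aa held TGACG at -74 and ATTGG at -48. Other spacings and variant letters were not searched, so the arrangement cannot be called absent from class II. The kappa B letters stood in 10 of the 32851 windows (0.0304%), with H2-D1, H2-K1 and H2-Q6 among them, and the 30 bases shown for H2-D1 matched H2-K1 at 29. The response element core was searched on both strands with its 2 middle bases free. It occurred in 2.98% of all windows and in 2 of the 22 class I heavy chain windows, H2-T22 and H2-T23. A response element that differs from these letters would be missed, so its absence from H2-K1 and H2-D1 cannot be concluded. RefSeq windows were found for 39 of the 56 genes. A match of letters is a description and was not tested for function.

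Estimated depths, from the spacing of low values, ran from 14.8 to 20.8 mega-fragments per library. Values are in FPKM, which corrects for gene length and library size. The 12 stromal markers were expressed in every library, summing to between 2109 and 3254 FPKM, and the defining epithelial marker Epcam was at 0 in the A- and PM-LMSCs and at 0.326 and 0.473 FPKM in the M-LMSCs. Of 14 epithelial markers, 7 were higher in both M-LMSC libraries than in the other 4, an order shown by 10.7% of the 21698 genes above 0. The summed level of the 14 was between 16.5 and 29.1 FPKM. The 3 tested were keratins: in M-LMSCs against A-LMSCs, Krt19 fell by 1.53 on the log2 scale (limma adjusted p = 0.0395), and Krt8 and Krt18 were 1.42 and 1.21 higher, called only with the replicate number as a block (adjusted p = 0.0171 and 0.0163). With that block limma called the same pair higher in PM-LMSCs against A-LMSCs. Of 20 markers of hematopoietic antigen-presenting cells, 11 were higher in both M-LMSC libraries than in the other 4, beside the same 10.7% of genes. The summed level of these 20 was 138 and 130 FPKM in A-LMSCs, 175 and 80.95 in PM-LMSCs, and 414 and 301 in M-LMSCs, mostly from the lysozyme gene Lyz2. Within that list the pan-leukocyte gene Ptprc reached at most 0.0987 FPKM, and Cd209a was at 0 in every library. Cd68, in the same list, stood at 5.85 and 6.44 FPKM in A-LMSCs, 6.84 and 5.48 in PM-LMSCs, and 9.83 and 12.2 in M-LMSCs. Across 7 mesothelial markers the sum was 47.5 and 70.9 FPKM in A-LMSCs, 129.7 and 194 in PM-LMSCs, and 95.6 and 244 in M-LMSCs, highest in M-LMSC replicate 2, and the part of these markers in the results was not tested. In bulk RNA, fewer cells of a type and less RNA per cell cannot be told apart.

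Class I heavy chain expression in LMSCs was dominated by H2-D1, which encodes a classical class I chain, in every library and at every stage. H2-D1 (ENSMUSG00000073411, chr17:35262730-35267499) measured 95.3 and 99.2 FPKM in A-LMSCs, 95.7 and 104.7 in PM-LMSCs, and 94.7 and 125.4 in M-LMSCs. The ranges of the 3 stages overlapped, and a single library, M-LMSC replicate 2, stood above the others. H2-D1 made up between 84.7% and 85.3% of the summed heavy chain FPKM in the 6 libraries.

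The other classical chain in the table, H2-K1 (ENSMUSG00000061232, chr17:33996017-34000347), was far lower, and its promoter holds the letters shown above. It stood at 3.06 and 3.27 FPKM in A-LMSCs, 2.32 and 2.61 in PM-LMSCs, and 2.63 and 3.91 in M-LMSCs. H2-D1 therefore exceeded H2-K1 by between 30.4 and 41.3 times in FPKM within a library. The transcripts of the 2 genes shared 88.4% of bases over an alignment of 1515 bases. The MHC is highly polymorphic, the reads came from FVB/N mice and the mm10 reference carries the C57BL/6J sequence. How reads of each chain were assigned therefore bears on the ratio of H2-D1 to H2-K1 and on the share of H2-D1. That assignment was not tested.

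Among the non-classical heavy chains, 4 genes reached a mean of 1 FPKM. H2-T10 stood at 5.94 and 4.72 FPKM in A-LMSCs, 6.25 and 8.06 in PM-LMSCs, and 6.24 and 7.71 in M-LMSCs. H2-T22 measured 1.75 and 1.75 FPKM in A-LMSCs, 2.91 and 2.12 in PM-LMSCs, and 2.11 and 2.55 in M-LMSCs. These closely related genes are known for chains recognized by gamma delta T cells, although the annotation lists H2-T10 as a polymorphic pseudogene. Both genes were higher in all 4 later libraries than in either A-LMSC library. Their transcripts matched at 96.5% of 1703 aligned bases, so the split of reads between them is uncertain.

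H2-M3, which presents N-formylated peptides, stood at 2.80 and 3.26 FPKM in A-LMSCs, 1.84 and 3.15 in PM-LMSCs, and 2.56 and 3.56 in M-LMSCs. H2-Q4 measured 1.78 and 1.92 FPKM in A-LMSCs, 1.40 and 1.24 in PM-LMSCs, and 1.16 and 2.01 in M-LMSCs. The stages of H2-M3 overlapped throughout, and both PM-LMSC values of H2-Q4 lay below both A-LMSC values. The other 25 heavy chain genes fell short of a mean of 1 FPKM, with 10 at 0 in every library and 22 below 0.5 FPKM in every library. H2-T23, which encodes Qa-1, was the second highest of these 25 with 0.441 to 0.962 FPKM, after H2-K2 with 0.480 to 1.03. A stretch of at least 200 bases with at least 95% identity to another annotated gene was found for 16 of the 31 heavy chain genes.

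**Figure D1:**
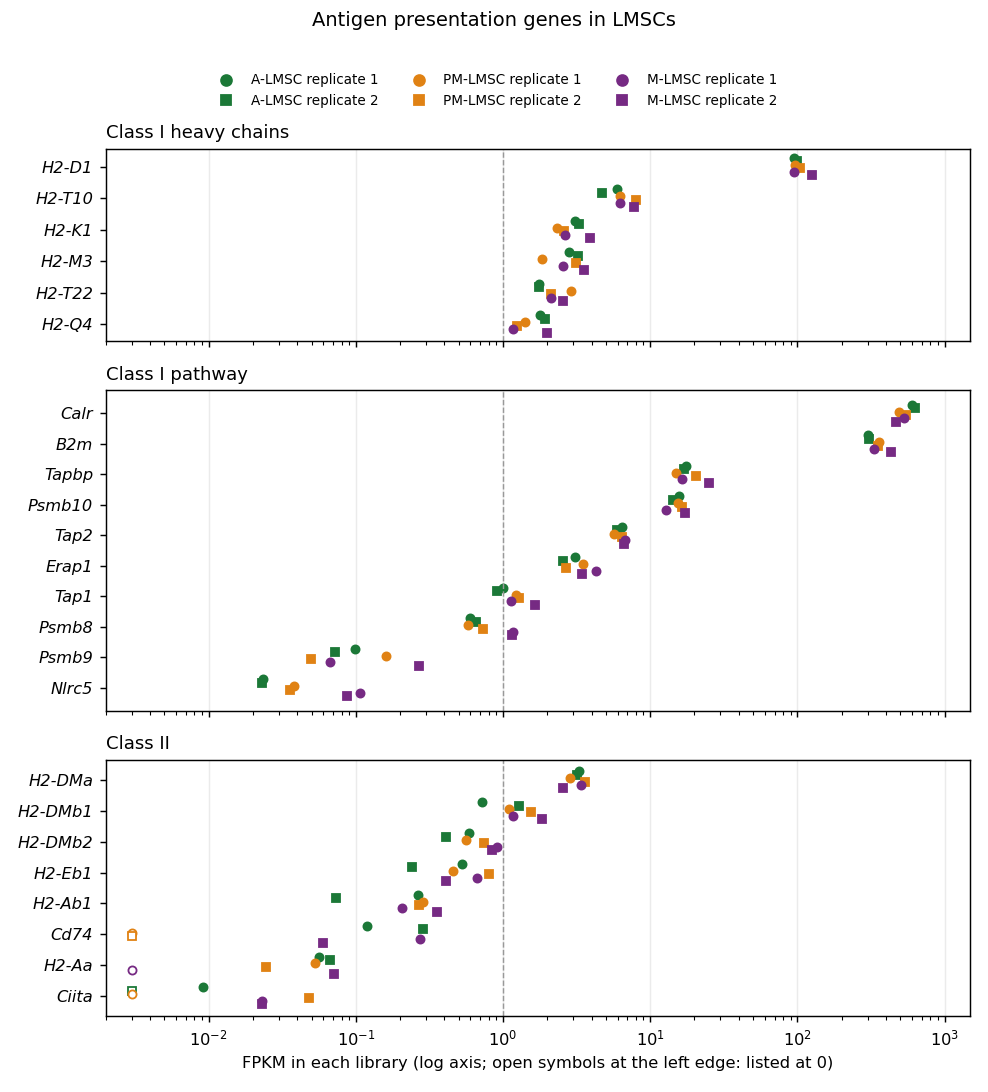
FPKM of class I heavy chains, class I pathway genes and class II genes in each library, on a log axis, with circles for replicate 1, squares for replicate 2 and colors for the stages. The dashed line marks 1 FPKM, and Psmb8, Nlrc5, Tap2 and H2-DMb2 are higher in both M-LMSC libraries than in the other 4.

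The light chain gene B2m and the loading factor gene Calr were expressed above every heavy chain gene. The mean of Tap1 over the libraries lay below the means of the 6 heavy chains that reached 1 FPKM. In PM-LMSC replicate 2, however, Tap1 (1.29 FPKM) was above H2-Q4 (1.24 FPKM). B2m (ENSMUSG00000060802) stood at 303 and 309 FPKM in A-LMSCs, 361 and 353 in PM-LMSCs, and 330 and 433 in M-LMSCs. All 4 later libraries were above both A-LMSC libraries, and B2m exceeded H2-D1 by between 3.11 and 3.78 times in FPKM. Calr, whose product is a general chaperone of the endoplasmic reticulum as well as a part of the loading complex, measured 602 and 635 FPKM in A-LMSCs, 491 and 544 in PM-LMSCs, and 534 and 465 in M-LMSCs. It was lower in all 4 later libraries than in either A-LMSC library, the opposite order to that of B2m.

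The transporter genes were unequal, with Tap2 between 4.05 and 6.54 times Tap1 in FPKM. Tap1 stood at 0.997 and 0.905 FPKM in A-LMSCs, 1.23 and 1.29 in PM-LMSCs, and 1.13 and 1.65 in M-LMSCs. Tap2 measured 6.44 and 5.92 FPKM in A-LMSCs, 5.68 and 6.46 in PM-LMSCs, and 6.79 and 6.67 in M-LMSCs. Tap1 was higher in the 4 later libraries, and Tap2 was highest in both M-LMSC libraries by a narrow margin.

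Tapbp, which tethers the heavy chain to the transporter, stood at 17.4 and 16.9 FPKM in A-LMSCs, 15.1 and 20.6 in PM-LMSCs, and 16.5 and 25.3 in M-LMSCs. Erap1 measured 3.11 and 2.55 FPKM in A-LMSCs, 3.47 and 2.68 in PM-LMSCs, and 4.29 and 3.42 in M-LMSCs. The later stages of Tapbp spanned the A-LMSC values, whereas both M-LMSC values of Erap1 were above both A-LMSC values.

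The immunoproteasome subunits Psmb8, Psmb9 and Psmb10 replace the standard catalytic subunits Psmb5, Psmb6 and Psmb7 when cells meet interferon, and the 3 pairs differed widely in LMSCs. Psmb10 stood at 15.7 and 14.4 FPKM in A-LMSCs, 15.6 and 16.4 in PM-LMSCs, and 12.9 and 17.1 in M-LMSCs, so that Psmb7 was only 2.17 to 2.68 times as high. Psmb9 measured 0.0989 and 0.0725 FPKM in A-LMSCs, 0.161 and 0.0499 in PM-LMSCs, and 0.0671 and 0.268 in M-LMSCs, and Psmb6 was between 161 and 1143 times as high. Psmb10, which lies on chromosome 8 and not in the MHC, was thus the one immunoproteasome subunit above 2 FPKM.

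Psmb8 (ENSMUSG00000024338, chr17:34197721-34201454) stood at 0.598 and 0.653 FPKM in A-LMSCs, 0.580 and 0.736 in PM-LMSCs, and 1.16 and 1.16 in M-LMSCs. Both M-LMSC libraries were above the other 4, with between 29.0 and 65.0 estimated fragments behind a value. The ratio of Psmb5 to Psmb8 in FPKM was between 122.2 and 137.3 in the A- and PM-LMSC libraries and 58.3 and 67.3 in the M-LMSC libraries. With 2 libraries against 2, an exact permutation test of such a ratio cannot give a two-sided p below 0.333, so none is given.

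**Figure D2:**
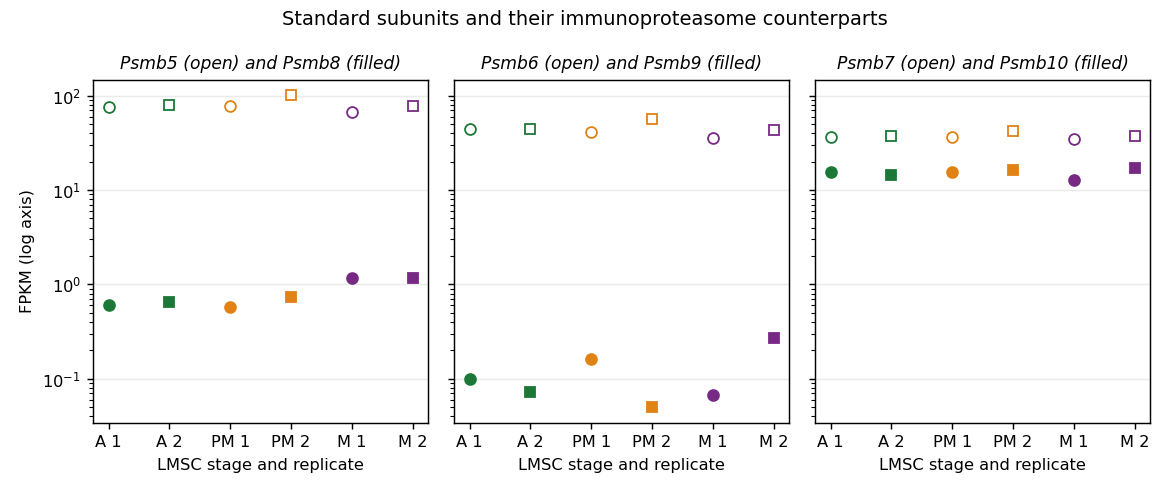
FPKM of each standard proteasome subunit (open symbols) and its immunoproteasome counterpart (filled symbols) by library, on a shared log axis. The Psmb7 and Psmb10 pair lies close together, and Psmb8 is above 1 FPKM only in the 2 M-LMSC libraries.

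Nlrc5, the transactivator of class I genes, was also higher in both M-LMSC libraries than in the other 4, at a far lower level than Psmb8. It measured 0.0233 and 0.0231 FPKM in A-LMSCs, 0.0383 and 0.0356 in PM-LMSCs, and 0.107 and 0.0877 in M-LMSCs. The estimated fragments behind these values ran from 3.43 to 15.1 per library, so their precision is low. The mean of the M-LMSC libraries was 4.21 times that of the A-LMSC libraries for Nlrc5 and 1.85 times for Psmb8.

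The tests across stages used limma on log2(FPKM + 1), a scale that understates the changes of low genes, for the 10279 genes whose mean over the libraries reached 1 FPKM. Of the 56 genes, 16 were tested, namely 6 heavy chains, 7 class I pathway genes, H2-DMa and H2-DMb1 of class II, and H2-Ke6. Since PM-LMSCs and M-LMSCs were both compared with the same A-LMSC libraries, the 2 comparisons are not independent. At an adjusted p under 0.05, 0 of the 16 were called for PM-LMSCs against A-LMSCs, where 0.0389% of all tested genes were called. The counts were also 0 of 16 for M-LMSCs against A-LMSCs, beside 0.0681% of all genes, and for M-LMSCs against PM-LMSCs, beside 0.0292%. At an unadjusted p under 0.05, 0 of the 16 passed in each comparison, against 6.53%, 14.6% and 8.94% of all genes in the same order. With the replicate number as a block, limma called 30, 403 and 43 genes in place of 4, 7 and 3 (0.292%, 3.92% and 0.418% of those tested), and again 0 of the 16. At an unadjusted p under 0.05 with the block, 3 of the 16 passed in M-LMSCs against A-LMSCs (Calr, Erap1 and H2-DMb1), beside 24.3% of all genes. In M-LMSCs against PM-LMSCs 1 passed (Erap1; 16% of all genes), as did 1 in PM-LMSCs against A-LMSCs (H2-T22; 13.8%).

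For the main class I genes the differences were small and their intervals in the fit as designed included 0. In M-LMSCs against A-LMSCs, limma gave a log2 difference of 0.16 (SE 0.15, adjusted p = 0.628) for H2-D1, with a 95% interval from -0.20 to 0.53. The corresponding values were 0.02 (SE 0.17, adjusted p = 0.962) for H2-K1, 0.31 (SE 0.15, adjusted p = 0.399) for B2m and 0.28 (SE 0.14, adjusted p = 0.387) for Tap1, all from limma. For B2m and Tap1 these became 0.11 and 0.13 without M-LMSC replicate 2, and 0.50 and 0.44 without M-LMSC replicate 1. The interval for H2-K1 ran from -0.38 to 0.42, so the values were compatible with a change of either sign within that range. The lowest adjusted p of the 16 genes, 0.342 by limma, belonged to Calr, which was 0.31 lower on the log2 scale (SE 0.13).

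PM-LMSCs against A-LMSCs gave log2 differences of 0.04 (SE 0.15) for H2-D1, -0.27 (SE 0.17) for H2-K1, 0.22 (SE 0.15) for B2m and 0.21 (SE 0.14) for Tap1, with limma adjusted p-values of 0.978, 0.858, 0.859 and 0.859. For M-LMSCs against PM-LMSCs the log2 differences were 0.12 (SE 0.15), 0.29 (SE 0.17), 0.08 (SE 0.15) and 0.07 (SE 0.14) for the same genes, with limma adjusted p-values of 0.839, 0.669, 0.894 and 0.894. None of these differences passed the test, whose spread is estimated over all 3 stages and moderated across genes.

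Described as groups, the tested heavy chains had a median log2 difference of 0.09 in M-LMSCs against A-LMSCs and the tested pathway genes 0.24 (0.11 without M-LMSC replicate 2), beside 0.03 for all tested genes. For PM-LMSCs against A-LMSCs the medians were -0.09 and 0.08, beside 0.01. Both M-LMSC values were above both A-LMSC values for 6 of the 16 genes (H2-T10, H2-T22, B2m, Erap1, Tap1 and Tap2), an order that 27.1% of all tested genes showed. Both were below for Calr alone, an order shown by 24.4% of all tested genes. PM-LMSCs lay wholly above A-LMSCs for 4 of the 16 (H2-T10, H2-T22, B2m and Tap1; 19.6% of all tested genes) and wholly below for 3 (H2-K1, H2-Q4 and Calr; 19.7%). M-LMSCs lay wholly above PM-LMSCs for H2-K1 and Tap2 (2 of 16; 17.8% of all tested genes) and below for 0 (16.7%).

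**Figure D3:**
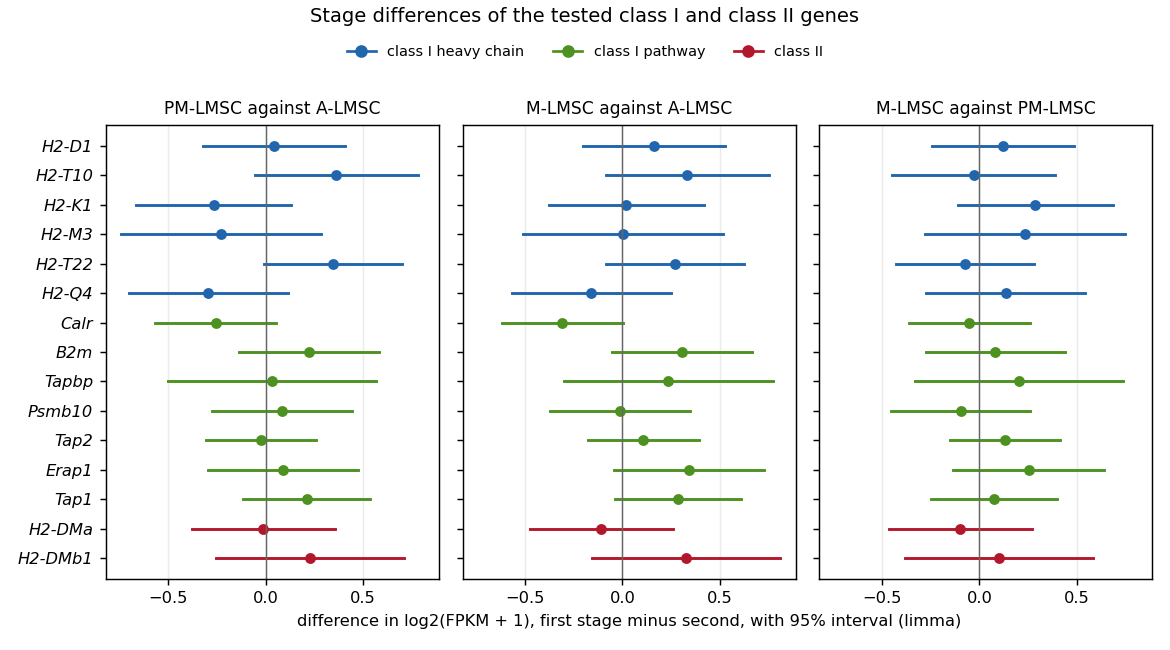
Difference in log2(FPKM + 1) between stages for each tested class I and class II gene, with the 95% interval from limma without the replicate block, in 3 panels for the 3 comparisons. Every such interval includes 0; that of Calr in M-LMSCs against A-LMSCs, from -0.62 to 0.00, comes closest to excluding it.

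Part of the spread among class I genes lay between the 2 M-LMSC libraries. M-LMSC replicate 2 was the highest library for 8 of the 13 tested class I genes, and 16.6% of all tested genes were highest there. All 6 tested heavy chains were higher in replicate 2 than in replicate 1 of M-LMSCs, with a median log2 difference of 0.38, whereas 51.1% of all tested genes were higher in replicate 2. In A-LMSCs and in PM-LMSCs, 4 of the 6 heavy chains were higher in replicate 2, with medians of 0.06 and 0.12. Without M-LMSC replicate 2, the log2 difference of M-LMSCs against A-LMSCs became -0.04 for H2-D1 and -0.20 for H2-K1, and the heavy chain median became -0.11. The interferon response genes Irf9, Stat2 and Isg15 were also highest in that library, and their part in the class I values was not tested.

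**Figure D4:**
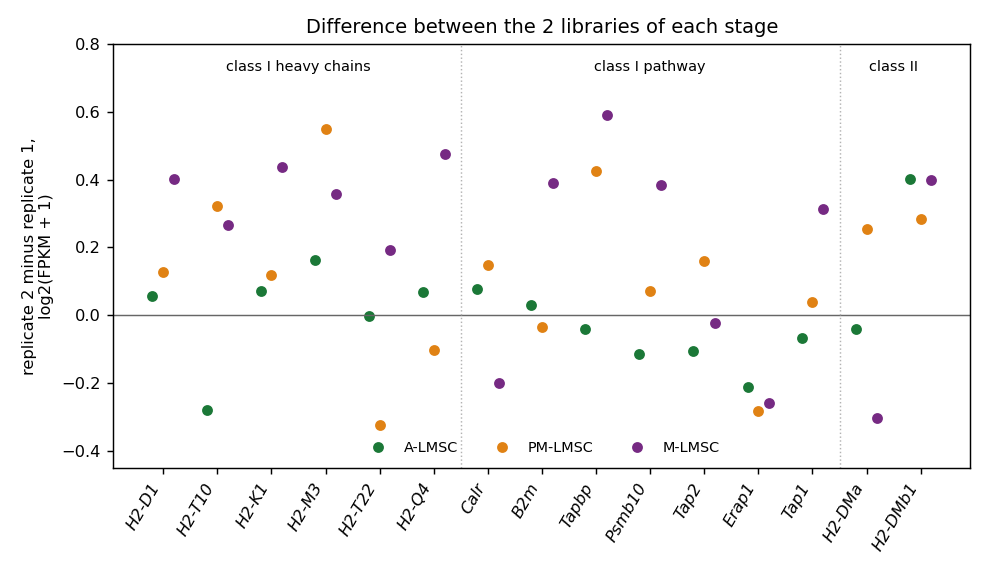
Replicate 2 minus replicate 1 in log2(FPKM + 1) for each tested class I and class II gene, by stage. The 6 heavy chains lie above 0 in M-LMSCs, from 0.19 to 0.48, and on both sides of 0 in A-LMSCs and PM-LMSCs.

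Class II genes were low in these libraries, and only H2-DMa and H2-DMb1 reached a mean of 1 FPKM. H2-DMa, one chain of the peptide editor, stood at 3.31 and 3.19 FPKM in A-LMSCs, 2.86 and 3.60 in PM-LMSCs, and 3.37 and 2.54 in M-LMSCs. H2-DMb1, its partner, measured 0.723 and 1.28 FPKM in A-LMSCs, 1.10 and 1.56 in PM-LMSCs, and 1.17 and 1.85 in M-LMSCs. In every comparison the stages of both genes overlapped. H2-DMb2, whose transcripts matched H2-DMb1 at 95.7% of 1081 aligned bases, stood at 0.590 and 0.408 FPKM in A-LMSCs, 0.563 and 0.749 in PM-LMSCs, and 0.911 and 0.836 in M-LMSCs.

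The genes that encode the peptide-binding class II molecules themselves stayed below 1 FPKM in every library. H2-Ab1, the beta chain of I-A, measured 0.265 and 0.0728 FPKM in A-LMSCs, 0.287 and 0.267 in PM-LMSCs, and 0.205 and 0.358 in M-LMSCs. Its partner H2-Aa stood at 0.0562 and 0.0669 FPKM in A-LMSCs, 0.0528 and 0.0246 in PM-LMSCs, and 0 and 0.0706 in M-LMSCs. H2-Eb1, the beta chain of I-E, measured 0.527 and 0.241 FPKM in A-LMSCs, 0.457 and 0.797 in PM-LMSCs, and 0.664 and 0.407 in M-LMSCs. The stages of H2-Eb1 overlapped. No more than 4.45 estimated fragments stood behind any H2-Aa value, so an order of its stages could not be read. H2-Ab1 was lowest in A-LMSC replicate 2, with between 3.27 and 15.3 estimated fragments per library.

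Cd74, the invariant chain, stood at 0.120 and 0.285 FPKM in A-LMSCs, listed at 0 in both PM-LMSC libraries, and at 0.272 and 0.0602 in M-LMSCs. Ciita measured 0.00913 and 0 FPKM in A-LMSCs, 0 and 0.0479 in PM-LMSCs, and 0.0230 and 0.0229 in M-LMSCs. No more than 8.38 estimated fragments stood behind any Cd74 value, so an order of the stages could not be read at this depth. Over the 14 class II genes, 4 were at 0 in every library and 10 were below 0.5 FPKM in every library, and the sum without the H2-DM chains was between 0.797 and 1.34 FPKM. The summed class I heavy chains reached 112 to 148 FPKM in the same libraries. H2-Ab1 and Cd74 fell short of a mean of 1 FPKM, and in a limma fit without that filter their log2 differences for M-LMSCs against A-LMSCs were 0.14 (SE 0.10, adjusted p = 0.640) and -0.05 (SE 0.11, adjusted p = 0.896). Without M-LMSC replicate 2 that of Cd74 turned to 0.08, and without A-LMSC replicate 2 to 0.05. For Cd74 the fit gave -0.26 in PM-LMSCs against A-LMSCs and 0.22 in M-LMSCs against PM-LMSCs (adjusted p = 0.834 and 0.702), and -1.54 and 1.29 with a pseudocount of 0.1 (adjusted p = 0.706 and 0.583).

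The higher level of Psmb8 and Nlrc5 in M-LMSCs stood among other differences of the same libraries. In the limma fit without a filter on low values, added after these values were seen, Psmb8 differed from A-LMSCs by 0.41 on the log2 scale (SE 0.10, adjusted p = 0.244) and Nlrc5 by 0.10 (SE 0.02, adjusted p = 0.238), so neither passed, in a fit that called 0.0138% of its genes. With a pseudocount of 0.1 the limma differences were 0.80 (adjusted p = 0.296) for Psmb8 and 0.68 (adjusted p = 0.263) for Nlrc5. Of the 42 genes with a value above 0 in some library, 6 were higher in both M-LMSC libraries than in the other 4 (14.3%), and 10.7% of all 21698 genes above 0 showed this order. The 6 were Psmb8, Nlrc5, Tap2, H2-DMb2, H2-T24 and H2-M5, of which H2-M5 did not exceed 0.0323 FPKM.

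Of the 20 hematopoietic markers listed, 11 also showed that order, beside the 10.7% of all genes above 0. Itgax was among those that did not, with 0.533 and 0.398 FPKM in A-LMSCs, 0.625 and 0.581 in PM-LMSCs, and 0.433 and 0.125 in M-LMSCs. All 7 tested markers of the list were higher on average in M-LMSCs than in A-LMSCs, by a median of 0.92 on the log2 scale, beside 54.7% of all tested genes. limma called 0 of them as designed, with all 7 at an unadjusted p under 0.05 (14.6% of all tested genes). With the replicate block it called 6 (3.92% of all tested genes). Tyrobp, an adapter of myeloid receptors, stood at 4.59 and 4.25 FPKM in A-LMSCs, 4.92 and 3.12 in PM-LMSCs, and 13.1 and 12.1 in M-LMSCs (limma adjusted p = 0.0788, and 0.0157 with the block, against A-LMSCs). Cathepsin S (Ctss), the protease that trims the invariant chain in antigen-presenting cells, measured 4.004 and 3.85 FPKM in A-LMSCs, 5.27 and 1.72 in PM-LMSCs, and 14.6 and 8.49 in M-LMSCs. Its log2 difference from A-LMSCs was 1.30 (SE 0.40, limma adjusted p = 0.229, and 0.0394 with the block). Outside the H2-DM chains, the class II genes and Cd74 stayed below 1 FPKM in M-LMSCs. The part of hematopoietic cells in the Psmb8 and Nlrc5 values was not tested.

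**Figure D5:**
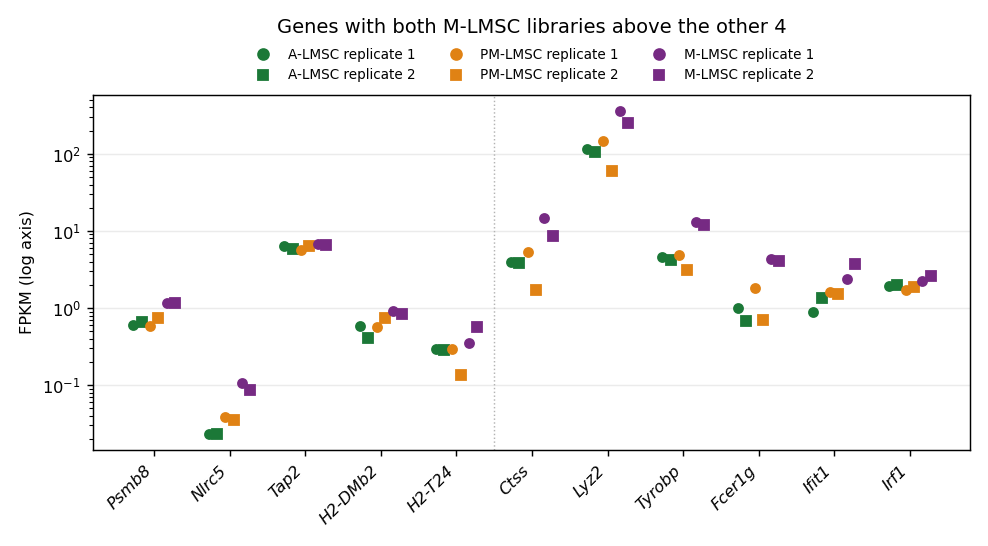
FPKM by library, on a log axis, of 5 antigen presentation genes (left of the dotted line) and of Ctss, markers of hematopoietic cells and interferon response genes (right), all with both M-LMSC libraries above the other 4. Psmb8 is nearly equal in the 2 M-LMSC libraries, whereas Ifit1 is higher in replicate 2 and Lyz2 in replicate 1.

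Other genes of the same pathways gave no call in the fit as designed. Further class I pathway genes numbered 16, including the chaperones Pdia3 and Canx and the standard proteasome subunits, and all 16 were tested. limma called 0 of them in any comparison, where at most 0.0681% of all tested genes were called. At an unadjusted p under 0.05, 0 of the 16 passed. The shares of all tested genes were 6.53% for PM-LMSCs against A-LMSCs, 14.6% for M-LMSCs against A-LMSCs and 8.94% for M-LMSCs against PM-LMSCs. The median log2 difference of the 16 was 0.01 in M-LMSCs against A-LMSCs. Of 14 further class II pathway genes listed, 12 were tested and limma called 0 as designed. Only Ctss had an unadjusted p under 0.05 in M-LMSCs against A-LMSCs (1 of 12, beside the 14.6% of all tested genes). The RFX factor Rfx5, which binds the X box of MHC promoters, was at 0.377 to 0.565 FPKM, and the lysosomal thiol reductase Ifi30 at 56.7 to 62.7 FPKM in the 6 libraries.

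A list drawn up for the interferon gamma pathway was tested through 14 of its 20 genes. It includes general interferon response genes such as Ifit1 and Isg15, so it is not specific to interferon gamma. All 14 were higher on average in M-LMSCs than in A-LMSCs, with a median log2 difference of 0.33. limma called 0 of them as designed, with 4 at an unadjusted p under 0.05, and called Ifit1 and Isg15 with the replicate block (adjusted p = 0.0250 and 0.0367). Of all tested genes, 54.7% were higher on average in this comparison. By limma, 14.6% had an unadjusted p under 0.05 as designed, and 3.92% were called with the block. Irf1, the factor that binds the response element of class I promoters, stood at 1.95 and 1.98 FPKM in A-LMSCs, 1.74 and 1.89 in PM-LMSCs, and 2.26 and 2.62 in M-LMSCs. The receptor genes Ifngr1 and Ifngr2 were expressed in every library, at 6.45 to 9.29 and at 18.6 to 22.9 FPKM, while Cxcl9, a chemokine strongly induced by interferon gamma, was listed at 0 in all 6.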

How the data were processed

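The authors deposited 1 table of FPKM values (fragments per kilobase of gene and per mega-fragment of library), with a column for each of 6 libraries. The submitters' processing notes name TopHat2 2.0.9 and mm10; the tool and annotation behind the FPKM values are not given in the sources used here. Depth was estimated from the spacing of low values in genes with a single transcript, of which 95.9% to 96.6% were whole fragments within 0.05. Genes whose mean over the libraries reached 1 FPKM were fitted as log2(FPKM + 1) with limma 3.58.1 in R 4.3.3 (trended eBayes, 1 mean per stage), with Benjamini-Hochberg adjustment over 10279 genes and a threshold of 0.05. The values are not counts, so no count model was used. The fit was run on simulated data with planted changes far larger than the differences of the genes described here. That simulation gave each library independent noise. It therefore does not show whether small differences, or ones shared by replicate number, would be detected. Libraries with the same replicate number deviated together from their stage means (correlations of 0.238, 0.307 and 0.491 over the 3 pairs of stages), so the numbers were treated as pairs in an alternative fit with a block. Near-identical transcripts were found with blastn 2.17.0 in GENCODE M21 (95% over 200 bases). Values in every library are given for the tested class I and class II genes and for the main class II chains, Cd74 and Ciita. Psmb8, Psmb9, Nlrc5, H2-DMb2 and Calr were named in addition after their values were seen, as were the other genes outside these lists. The genes, lists and tests were chosen with earlier results of these data known. Other libraries of the study were not analysed here.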

Additional observations from a re-analysis of the deposited data

How the results depend on the processing

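The count of 0 antigen presentation genes called held under all 13 alternatives in each comparison, among them a pseudocount of 0.1, other scalings and each library left out. The lowest adjusted p of the 16 genes that passed the filter was 0.112 by limma, for Erap1 with the replicate block, and Nlrc5, tested without the filter, reached 0.0844 without M-LMSC replicate 2. Treating the replicate numbers as pairs in that block changed no call among them and raised the calls over all genes to 30, 403 and 43 for PM-LMSCs against A-LMSCs, M-LMSCs against A-LMSCs and M-LMSCs against PM-LMSCs. Without a filter on low values these calls were 1 and 3 for the first 2 comparisons, and with only the 2 stages compared 21 and 1. With each library left out they ranged from 1 to 28, 1 to 90 and 2 to 25.

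Leaving out single libraries turned several small differences, none of which was called. For H2-D1 the log2 difference ranged from -0.023 to 0.11 in PM-LMSCs against A-LMSCs (lowest without PM-LMSC replicate 2), from -0.038 to 0.36 in M-LMSCs against A-LMSCs and from -0.079 to 0.32 in M-LMSCs against PM-LMSCs (lowest without M-LMSC replicate 2). H2-K1 in M-LMSCs against A-LMSCs ranged from -0.20 to 0.24, was -0.016 without A-LMSC replicate 1, and became -0.041 under quantile normalization and -0.029 when libraries were centred on their medians. In M-LMSCs against PM-LMSCs, B2m ranged from -0.11 to 0.28, Tap1 from -0.082 to 0.23 and Calr from -0.15 to 0.048, also positive at 0.022 without PM-LMSC replicate 2. Psmb8 in PM-LMSCs against A-LMSCs was -0.041 without PM-LMSC replicate 2 and 0.027 with all libraries.

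The heavy chain median ranged from -0.11 to 0.30 in M-LMSCs against A-LMSCs and from -0.09 to 0.35 in M-LMSCs against PM-LMSCs when each library was left out. The class I pathway median ranged from 0.11 to 0.26 in the first of these (lowest without M-LMSC replicate 2). The class II median ranged from -0.03 to 0.24 in PM-LMSCs against A-LMSCs and from -0.13 to 0.14 in M-LMSCs against PM-LMSCs. A stage with 1 library left was taken to vary like the others. No alternative scaling moved the median of all genes by more than 0.1 on the log2 scale. The precision was limited by 2 libraries a stage, since the median 95% interval of the tested antigen presentation genes reached 0.38 to either side on the log2 scale.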

Other observations

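MHC-like genes encoded outside the H2 region were measured through 12 listed genes, of which 7 were tested. Fcgrt, the neonatal Fc receptor, was the highest, at 61.2 and 53.9 FPKM in A-LMSCs, 42.8 and 53.3 in PM-LMSCs, and 53.7 and 67.3 in M-LMSCs, so that both PM-LMSC libraries were below the other 4. Raet1d, a ligand of the natural killer cell receptor NKG2D, measured 17.2 and 17.9 FPKM in A-LMSCs, 13.6 and 12.2 in PM-LMSCs, and 15.9 and 9.95 in M-LMSCs, so that both A-LMSC libraries were above the other 4. Raet1e stood at 13.0 and 11.2 FPKM in A-LMSCs, 10.5 and 9.64 in PM-LMSCs, and 10.7 and 7.64 in M-LMSCs, in the same order.

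Procr, the endothelial protein C receptor with an MHC-like fold, measured 6.81 and 7.73 FPKM in A-LMSCs, 12.4 and 12.8 in PM-LMSCs, and 10.8 and 11.2 in M-LMSCs. Its log2 difference in M-LMSCs against A-LMSCs was 0.54 (SE 0.11, limma adjusted p = 0.118, and 0.0394 with the replicate block), higher in 2 of 2 libraries. In PM-LMSCs against A-LMSCs it was 0.72 (SE 0.11, limma adjusted p = 0.239, and 0.0537 with the block). limma called 0 of the 7 as designed, with Procr alone at an unadjusted p under 0.05 in both comparisons with A-LMSCs. Of all tested genes, 14.6% had such a p in M-LMSCs against A-LMSCs and 6.53% in PM-LMSCs against A-LMSCs. The shares called as designed were 0.0681% and 0.0389%, and 3.92% and 0.292% with the block.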
